A study of Caenorhabditis elegans with 8 samples.

Results

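The genes described here encode molecular chaperones of the cytosol, the endoplasmic reticulum (ER) and the mitochondrion of the nematode Caenorhabditis elegans. They were taken by name from a list of 10 genes, of which 9 were among the 16031 genes of the authors' deposited table: hsp-1, daf-21, hsp-70, hsp-16.2, hsp-16.41, hsp-4, hsp-3, hsp-6 and hsp-60. The remaining gene, hsp-16.48, was not analysed here. All 9 had a test result in both comparisons with the lysates.

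Chaperones bind unfolded proteins and help them to fold. The cytosol relies on HSP70 and HSP90 proteins together with small heat shock proteins, whose genes are switched on by heat shock factor. The ER has its own HSP70, known as BiP, and the mitochondrion has an HSP70 and the HSP60 folding chamber. In worms, hsp-4 is a standard reporter of the ER stress response, hsp-6 and hsp-60 are reporters of the mitochondrial one, and hsp-16.2 and hsp-70 are strongly induced by heat. OMA-1 and LIN-41 are RNA-binding proteins of growing oocytes that control the translation of maternal mRNAs.

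RNA was sequenced from 8 libraries in 6 groups: 2 immunoprecipitates (IPs) of OMA-1, 2 IPs of LIN-41, and from each strain 1 lysate depleted of ribosomal RNA with the RiboZero kit and 1 lysate that was not depleted. The OMA-1 animals had the genotype fog-1(q253ts); oma-1(zu405te33) with the transgene tnIs17, which expresses GFP-tagged OMA-1 from the oma-1 promoter and carries unc-119(+). The LIN-41 animals carried fog-1(q253ts) and GFP inserted at the lin-41 gene itself, the allele tn1541. Every group thus shared fog-1(q253ts), an allele that turns germ cells from sperm to oocyte fate at 25 °C, the temperature at which all animals were grown until their collection as young adults, 48 h after feeding began. Both IPs used the same mixture of GFP antibodies, and no untagged or mock IP was among the 8 libraries. No label ties the paired IP libraries to independent cultures. The p-values therefore reflect only how much these libraries varied, which may be technical.

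In the authors' deposited table the IPs are compared with a pool of both strains' depleted lysates, and the undepleted lysates were not used here. The table gives pooled levels in FPKM, which are scaled for gene length, and log2 ratios with a one-sided adjusted p for enrichment. It holds no value for a single library, so no level below has a replicate spread and neighbours in an order of levels cannot be called different. Library totals are unknown, and the authors' mean read count per gene (baseMean) stands in for depth. It ran from 2621 (hsp-3) to 19398 (hsp-4) for 6 of the chaperone genes. For hsp-70, hsp-16.2 and hsp-16.41 it was only 12.9, 10.2 and 23.6, so values for these 3 genes are imprecise. Lower values, and the OMA-1 minus LIN-41 difference in which the lysates cancel, were tested approximately with standard errors (SE) implied by the deposited p-values. For hsp-1, hsp-3 and hsp-70 those errors came from genes of like read count, since a ratio below 0 in both IPs implies none. The authors' flag for low-quality or multiply mapped reads marked 69 genes and none of these 9, but hsp-3 and hsp-4 are close relatives, as are hsp-16.2 and hsp-16.41, and a share of their reads may be uncertain.

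Where a ratio of 0 lies rests on the authors' scaling. Without the mitochondrial genome, the FPKM values of the authors' deposited table summed to 987794 in the OMA-1 IPs and 758240 in the LIN-41 IPs, against 391735 in the lysates. Setting these totals equal shifts all OMA-1 log2 ratios by -1.33 and all LIN-41 log2 ratios by -0.95. Over all genes, 14.1% were then higher and 52% lower with OMA-1, and 12.83% higher and 46.47% lower with LIN-41. After quantile normalization OMA-1 had 23.38% higher and 25.04% lower, and LIN-41 had 22.61% higher and 21% lower. Counts at equal totals or after quantile normalization are to be read against these shares. Ratios also differed with the mean read count. The median log2 ratio was -0.09 for OMA-1 and -0.04 for LIN-41 over all genes tested. Over the 2714 genes with a mean read count of at least 1000 the medians were 1.33 and 0.86. That count takes in the IP libraries too, so the cut favours genes high in an IP, here and in the shares below.

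The lysates came from whole animals. Markers of oocytes summed to 12013 FPKM in the OMA-1 IPs and 50878 FPKM in the LIN-41 IPs, against 3166 FPKM in the lysates. One gene, spn-4, held 1306 FPKM of this in the OMA-1 IPs and 43194 FPKM in the LIN-41 IPs, against 579 FPKM in the lysates. The other 7 summed to 10708 and 7684 FPKM in the OMA-1 and LIN-41 IPs, against 2587 FPKM in the lysates. With OMA-1, 7 of the 8 were called higher and 1 lower, but 3 and 3 at equal totals and 2 and 4 after quantile normalization, where the median log2 ratio of 1.37 turned to -0.31. With LIN-41 all 8 were called higher, but 6 at equal totals with 1 lower, and 5 with 2 lower after quantile normalization. Intestine markers summed to 962 and 1288 FPKM in the OMA-1 and LIN-41 IPs, against 4233 FPKM in the lysates, and 7 of 8 were lower with each protein. Body wall muscle markers summed to 3724 and 490 FPKM, against 1350 FPKM in the lysates. Of these 8 genes, 6 were lower with OMA-1, all 8 were lower with LIN-41, and act-4, a muscle actin gene, was called higher with OMA-1 at a log2 ratio of 3.70. The 3 sperm markers in the table did not pass 0.73 FPKM in any group. Hypodermis markers summed to 1021, 423 and 781 FPKM in the OMA-1 IPs, the LIN-41 IPs and the lysates, with 1 of 6 lower with each protein and lin-26 higher with OMA-1. At equal totals OMA-1 had 4 lower and LIN-41 had 3 lower, and after quantile normalization 1 and 2. Neuron markers summed to 150, 142 and 85.8 FPKM. Of these 6 genes, 4 were called higher with OMA-1 (2 at equal totals, 4 after quantile normalization). With LIN-41 3 were called higher (0 at equal totals, 2 after quantile normalization). Lower were 1 with OMA-1 (2 under each other scaling) and 0 with LIN-41 (2 at equal totals). Gonadal sheath markers summed to 8.81, 8.64 and 26.3 FPKM, with 1 of 4 lower with each, or at equal totals 4 for OMA-1 and 3 for LIN-41. No marker in the table was at 0. The part of these somatic and germline differences in the chaperone values was not tested. An IP holds the RNA that came down with the tagged protein, so marker sums in an IP do not measure tissue content.

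The order of the chaperone mRNAs differed between the IPs and the lysates. In the OMA-1 IPs the ER chaperone gene hsp-4 stood highest, at 1954 FPKM, and in the LIN-41 IPs the mitochondrial gene hsp-60 did, at 337 FPKM. In the lysates cytosolic daf-21 and hsp-1 stood highest, at 713 and 696 FPKM. The heat-inducible genes hsp-70, hsp-16.2 and hsp-16.41 were the 3 lowest in every group. Summed over each compartment, the ER pair held 2009 FPKM in the OMA-1 IPs and 271 FPKM in the LIN-41 IPs, against 258 FPKM in the lysates. The mitochondrial pair held 1366 and 584 FPKM in the OMA-1 and LIN-41 IPs, against 291 FPKM in the lysates. The 5 cytosolic genes held 1129 and 399 FPKM, against 1413 FPKM in the lysates. As a share of each group's FPKM total without the mitochondrial genome, the ER pair held 0.203% in the OMA-1 IPs and 0.0357% in the LIN-41 IPs, against 0.0657% in the lysates, so its LIN-41 direction turned. The mitochondrial pair held 0.138% and 0.0771% of the OMA-1 and LIN-41 totals, against 0.0743% in the lysates. For the 5 cytosolic genes the shares were 0.114% and 0.0526%, against 0.361% in the lysates.

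**Figure D1:**
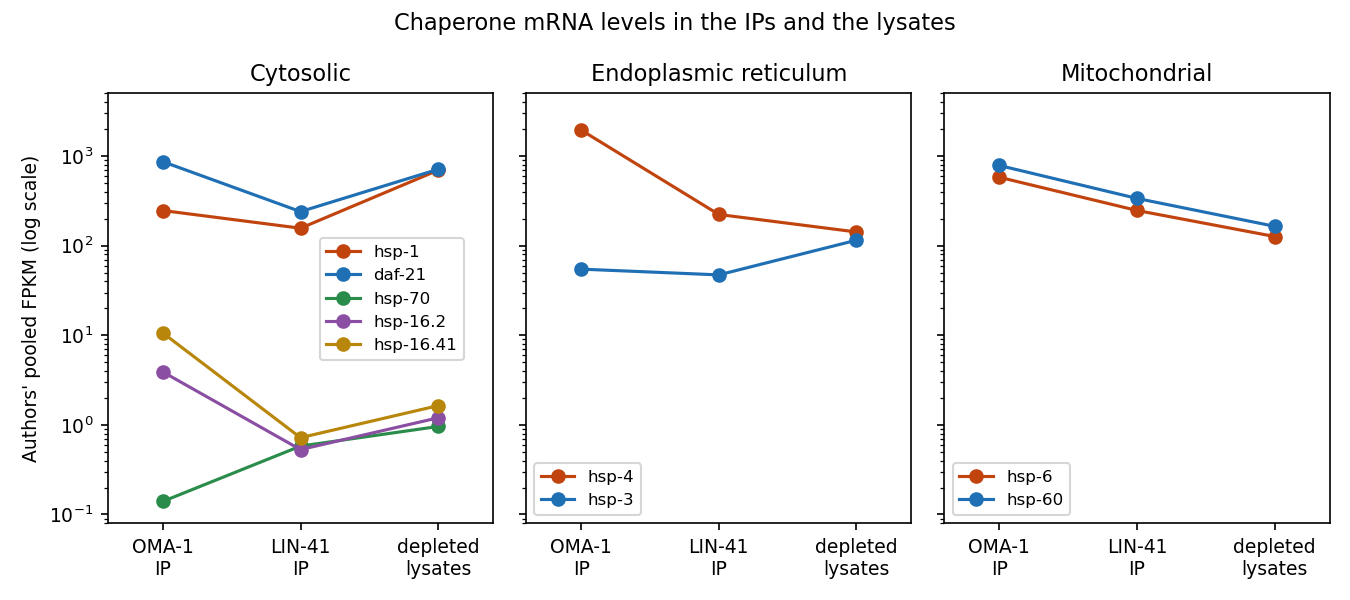
Pooled level of each chaperone mRNA in the OMA-1 IPs, the LIN-41 IPs and the depleted lysates, in the authors' FPKM on a log axis, with 1 point per pooled value and a panel per compartment. The ER genes hsp-4 and hsp-3 lie at 1954 and 54.8 FPKM in the OMA-1 IPs but at 142 and 115 FPKM in the lysates.

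The first comparison asked which of these mRNAs came down with OMA-1. Under the deposited scaling, those of the ER chaperone hsp-4, the mitochondrial chaperones hsp-60 and hsp-6 and the small heat shock protein hsp-16.41 were several-fold above the lysates. The mRNA of daf-21 was slightly above them. Those of hsp-1, hsp-3 and hsp-70 were lower. The authors' deposited table called 5 of the 9 higher at an adjusted p below 0.05, where 28.4% of all genes tested were called, and the approximate test called 3 lower, where 18.7% of all genes were. Among genes with a mean read count of at least 1000, 67.8% were called higher and 23% lower. Of the 6 chaperone genes that abundant, 4 were higher and 2 lower, and 3 lay above the median of such genes.

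The ER genes hsp-4 and hsp-3 both encode BiP, the HSP70 of the ER. The authors' deposited table gave hsp-4 (WBGene00002008, chromosome II 7350112 to 7352645 in WBcel235) 1954 FPKM in the OMA-1 IPs, against 142 FPKM in the lysates. Its log2 ratio of 3.77, a 13.7-fold excess, lay at percentile 95.9 of all genes tested, and its adjusted p was stored as 0. Its relative hsp-3 (WBGene00002007, X 6089028 to 6092124) had 54.8 FPKM in the OMA-1 IPs, against 115 FPKM in the lysates, in the authors' deposited table. That log2 ratio of -1.07 ± 0.14 (approximate SE) was lower by the approximate test, with an adjusted p of 1.57e-12. The BiP genes thus moved in opposite directions, and hsp-4 exceeded hsp-3 35.7-fold in the OMA-1 IPs, against 1.24-fold in the lysates.

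The mitochondrial genes moved together. The mitochondrial HSP70 gene hsp-6 (WBGene00002010, V 4824124 to 4826760) had 581 FPKM in the OMA-1 IPs, against 127 FPKM in the lysates, a log2 ratio of 2.19 with an adjusted p of 2.43e-119 in the authors' deposited table. The mitochondrial HSP60 gene hsp-60 (WBGene00002025, III 1619742 to 1625803), had 786 FPKM in the OMA-1 IPs, against 165 FPKM in the lysates. In the authors' deposited table its log2 ratio was 2.25, with an adjusted p of 3.17e-70. At equal totals the OMA-1 log2 ratios fell to 0.86 for hsp-6 and 0.92 for hsp-60. After quantile normalization they fell to 0.26 and 0.34, and under both scalings each gene was still called higher. The ratio of hsp-60 to hsp-6 was 1.35 in the OMA-1 IPs and 1.36 in the LIN-41 IPs, against 1.30 in the lysates.

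The cytosolic genes were split. The constitutive HSP70 gene hsp-1 (WBGene00002005, IV 17278959 to 17281330) had 247 FPKM in the OMA-1 IPs, against 696 FPKM in the lysates, in the authors' deposited table. Its log2 ratio of -1.49 ± 0.15 was lower by the approximate test, with an adjusted p of 1.47e-22. The HSP90 gene daf-21 (WBGene00000915, V 14684918 to 14688545) had 867 FPKM in the OMA-1 IPs, against 713 FPKM in the lysates. The authors' deposited table called it higher at a log2 ratio of 0.28 and an adjusted p of 0.0293, but the ratio turned to -1.05 at equal totals and -1.46 after quantile normalization, where it was lower.

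The heat-inducible genes were near the lower end of what was measured. The authors' deposited table gave hsp-16.41 (WBGene00002018, V 1805178 to 1805875) 10.6 FPKM in the OMA-1 IPs, against 1.64 FPKM in the lysates, a log2 ratio of 2.54 with an adjusted p of 8.76e-05, which was no longer called at equal totals at 1.2. Its neighbour hsp-16.2 (WBGene00002016, V 1804334 to 1804957), transcribed in the opposite direction from a start 220 bp away, had 3.90 FPKM in the OMA-1 IPs, against 1.2 FPKM in the lysates. That log2 ratio of 1.54 did not pass, with an adjusted p of 0.0836 in the authors' deposited table. The heat-inducible HSP70 gene hsp-70 (WBGene00002026, I 9320325 to 9322519) had 0.14 FPKM in the OMA-1 IPs, against 0.96 FPKM in the lysates. Its ratio in the authors' deposited table, a log2 of -2.42 with an approximate SE of 0.82, was lower by the approximate test, with an adjusted p of 0.0105.

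**Figure D2:**
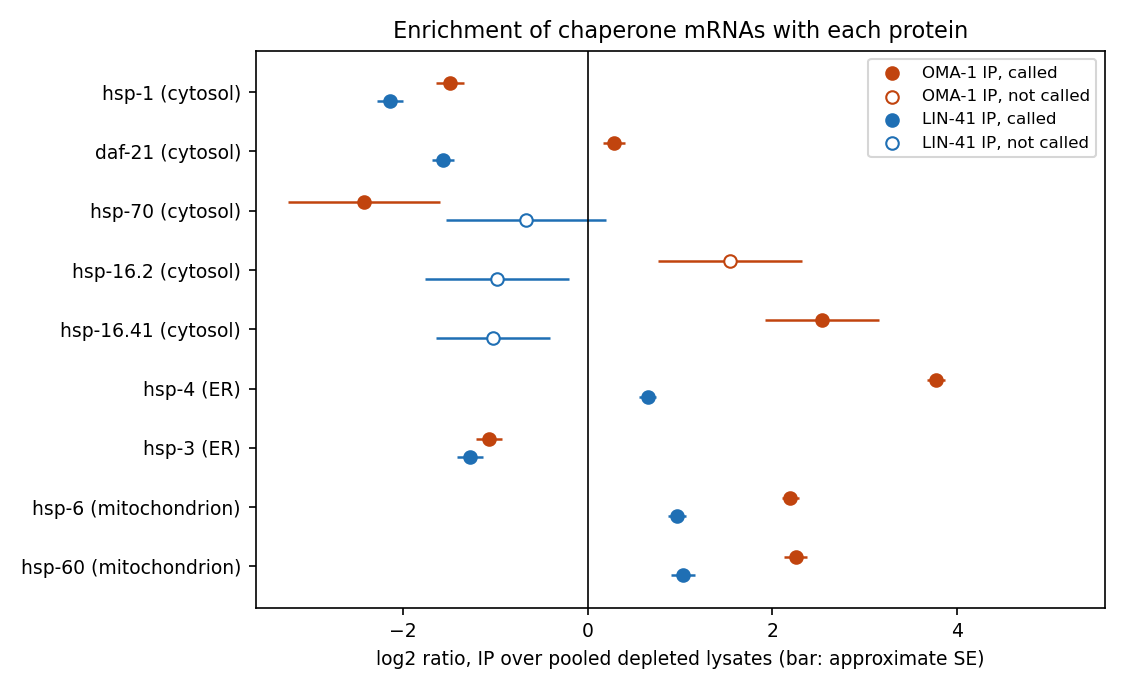
Log2 ratios to the pooled depleted lysates of the 9 chaperone mRNAs, with the OMA-1 IPs above the LIN-41 IPs in each row. Bars are approximate SEs from the deposited p-values, directly or by the rules given under data processing. Filled points passed a test at an adjusted p below 0.05, and hsp-4 lies farthest right at 3.77 with OMA-1.

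The second comparison asked the same of LIN-41. The mRNAs of hsp-60, hsp-6 and hsp-4 were again above the lysates under the deposited scaling, by less than with OMA-1 and at most by a log2 ratio of 1.03, that of hsp-60, while hsp-1, daf-21 and hsp-3 were lower. The authors' deposited table called 3 of the 9 higher, where 27.2% of all genes tested were called, and the approximate test called 3 lower, where 14% of all genes were. Among genes with a mean read count of at least 1000, 66.0% were called higher and 19.5% lower, and 3 of the 6 chaperone genes that abundant went each way. Of these 6, 2 lay above the median LIN-41 ratio of such genes, and hsp-4 lay below it. None of the 3 higher calls held at equal totals or after quantile normalization.

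In the authors' deposited table, hsp-60 had 337 FPKM in the LIN-41 IPs, against 165 FPKM in the lysates, with an adjusted p of 1.40e-15. Quantile normalization turned its ratio to -0.02. The level of hsp-6 was 247 FPKM in the LIN-41 IPs, against 127 FPKM in the lysates, a log2 ratio of 0.96 with an adjusted p of 1.14e-23 in the authors' deposited table, which quantile normalization turned to -0.09. For hsp-4 the authors' deposited table gave 223 FPKM in the LIN-41 IPs, against 142 FPKM in the lysates. Its log2 ratio of 0.65, with an adjusted p of 7.21e-12, turned to -0.30 at equal totals and -0.46 after quantile normalization, where it was lower.

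Among the mRNAs that were lower with LIN-41, hsp-1 stood at 157 FPKM in the LIN-41 IPs, against 696 FPKM in the lysates, in the authors' deposited table. Its log2 ratio of -2.15 ± 0.14 lay at percentile 2.84 of all genes tested. The HSP90 gene daf-21 stood at 240 FPKM in the LIN-41 IPs, against 713 FPKM in the lysates, a log2 value of -1.57 ± 0.12 over the lysates in the authors' deposited table. The error used for daf-21 was that of its OMA-1 ratio. The BiP gene hsp-3 stood at 47.3 FPKM in the LIN-41 IPs, against 115 FPKM in the lysates, and its log2 ratio was -1.28 ± 0.14 in the authors' deposited table. By the approximate test their adjusted p-values were 3.71e-51 for hsp-1, 7.14e-39 for daf-21 and 4.09e-18 for hsp-3. All 3 ratios were also below 0 after quantile normalization. Equal totals shift every ratio downward, so that scaling could not have turned them.

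Each of the heat-inducible genes was under 1 FPKM with LIN-41. For hsp-16.41 the authors' deposited table gave 0.72 FPKM in the LIN-41 IPs, against 1.64 FPKM in the lysates, and for hsp-16.2 0.53 FPKM in the LIN-41 IPs, against 1.2 FPKM in the lysates. For hsp-70 it gave 0.58 FPKM in the LIN-41 IPs, against 0.96 FPKM in the lysates. The log2 ratios of -1.03 (hsp-16.41), -0.98 (hsp-16.2) and -0.67 (hsp-70) did not pass the approximate test for lower values, with adjusted p-values of 0.233, 0.406 and 0.639.

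The third comparison set the IPs against each other. Chaperone mRNAs were mostly more abundant with OMA-1 than with LIN-41: the difference of the log2 ratios was above 0 for 8 of 9 genes and passed the approximate two-sided test for 6, where 19.6% of all genes were higher with OMA-1 and 12.4% with LIN-41. Among genes with a mean read count of at least 1000, 48.4% were higher with OMA-1, and 5 of the 6 chaperone genes that abundant were. The median difference was -0.03 over all genes tested and 0.34 over genes with that read count. At equal totals 5 of the 9 were higher with OMA-1, and after quantile normalization 4, beside 14.78% and 15.36% of all genes. The ER gene hsp-4 had the widest separation of the well-measured genes, and the difference of its relative hsp-3 did not pass the test. Both comparisons share the lysates, and those cancel in this difference. Each protein was pulled down from its own strain, so protein and strain cannot be told apart in it.

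The BiP gene hsp-4 had 1954 FPKM in the OMA-1 IPs and 223 FPKM in the LIN-41 IPs, a difference of 3.13 ± 0.14 (8.73-fold) with an adjusted p of 5.10e-113. For hsp-3 the levels were 54.8 FPKM in the OMA-1 IPs and 47.3 FPKM in the LIN-41 IPs. Its difference of 0.21 ± 0.20 did not pass (adjusted p of 0.537), had an approximate 95% interval from -0.18 to 0.61, and turned to -0.17 at equal totals. The ratio of hsp-4 to hsp-3 was thus 35.7 in the OMA-1 IPs and 4.72 in the LIN-41 IPs, figures that no scaling by a constant would alter.

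The cytosolic genes daf-21 and hsp-1 were also higher with OMA-1. The difference was 1.85 ± 0.17 for daf-21, with 867 FPKM in the OMA-1 IPs and 240 FPKM in the LIN-41 IPs and an adjusted p of 1.48e-27. It was 0.65 ± 0.20 for hsp-1, with 247 and 157 FPKM and an adjusted p of 0.00524, and that call was lost at equal totals (0.27) and turned to -0.09 after quantile normalization. The mitochondrial genes hsp-6 and hsp-60 had like differences of 1.23 ± 0.13 and 1.22 ± 0.18, with adjusted p-values of 4.21e-19 and 8.38e-11. With quantile normalization both were 0.35, and hsp-60 no longer passed (adjusted p of 0.136).

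Of the heat-inducible genes, hsp-16.41 was higher with OMA-1, by 3.57 ± 0.87, with an adjusted p of 2.14e-04. That test took its LIN-41 error over from OMA-1, and with an error from genes of like read count the adjusted p was 8.90e-04. The difference was 2.52 ± 1.11 for hsp-16.2, with an adjusted p of 0.0681, and -1.75 ± 1.2 for hsp-70, with an adjusted p of 0.319. Their approximate 95% intervals ran from 0.35 to 4.69 and from -4.10 to 0.59.

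**Figure D3:**
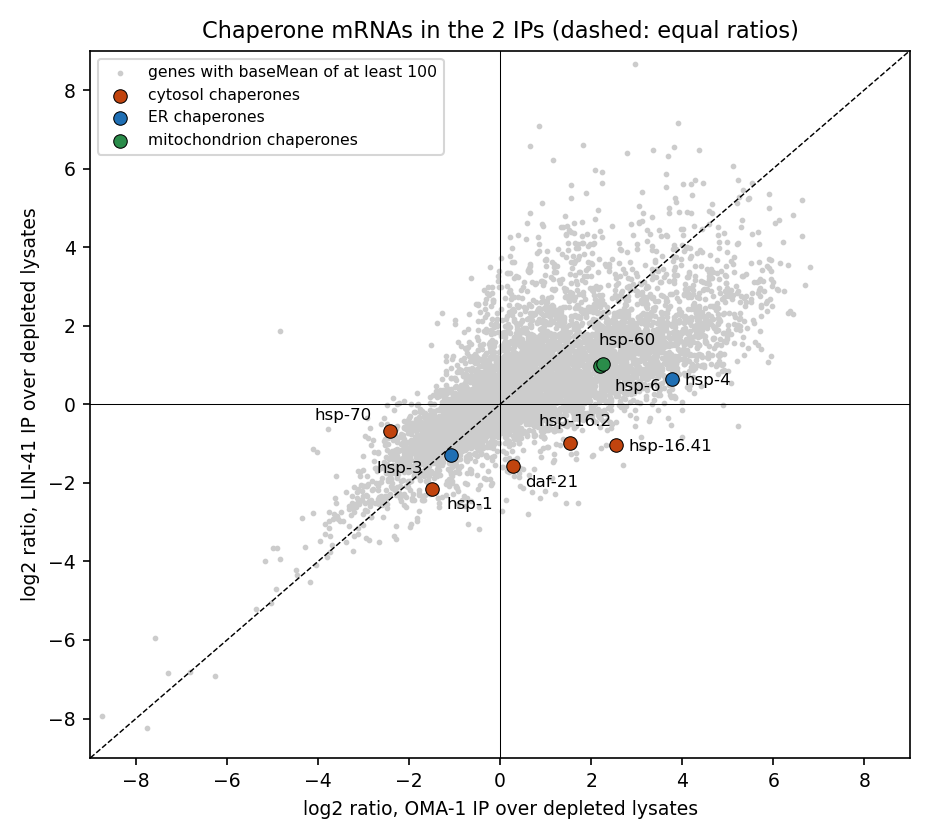
Log2 ratio over the depleted lysates with OMA-1 (horizontal) and LIN-41 (vertical) for the 9 chaperone genes, coloured by compartment, over the 6768 genes with a mean read count of at least 100 in grey. All but hsp-70 lie below the dashed line of equal ratios, and hsp-4 lies at 3.77 and 0.65.

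By a rule on the pair of log2 ratios, the genes most like hsp-4 and hsp-1 were named. Over 6768 genes with a mean read count of at least 100, the nearest to hsp-4 were emc-3, which encodes a subunit of an ER membrane complex, at a distance of 0.07 on the log2 scale, kin-18, a kinase gene, at 0.12, and ced-2, a cell corpse engulfment gene, at 0.13. The authors' deposited table gave emc-3 729 FPKM in the OMA-1 IPs and 77.5 FPKM in the LIN-41 IPs, against 51.7 FPKM in the lysates. Nearest to hsp-1 were rpl-24.1, Y38F1A.6 and lec-9, at distances of 0.09, 0.09 and 0.13. These distances rest on 2 pooled ratios that share the lysates.

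Genes that work beside these chaperones were taken from 4 further lists. In the list of cytosolic chaperones, co-chaperones and heat shock response genes, hsf-1, which encodes heat shock factor, was far above the lysates in both IPs, while other genes were lower. With OMA-1, 9 of 19 were called higher and 9 lower, where 28.4% and 18.7% of all genes were, with a median log2 ratio of -0.17, and at equal totals 3 were higher and 14 lower (4 and 12 after quantile normalization). The authors' deposited table gave hsf-1 720 FPKM in the OMA-1 IPs and 234 FPKM in the LIN-41 IPs, against 46.1 FPKM in the lysates, log2 ratios of 3.96 and 2.34. The immunophilin gene fkb-6 followed with OMA-1 at 1.90, which quantile normalization reduced to 0.05, and bag-1, an HSP70 nucleotide exchange factor gene, led with LIN-41 at 2.38. The lowest with OMA-1 were unc-23 (-1.51) and dnj-19 (-1.50), the gene of an HSP40. With LIN-41, 5 of 19 were called higher and 8 lower (median -0.36), hip-1 at -1.12 and dnj-19 at -1.03 being the lowest, where 27.2% and 14% of all genes were called. At equal totals 4 were higher and 14 lower with LIN-41 (5 and 12 after quantile normalization). Between the IPs, 5 were higher with each protein, where 19.6% of all genes were higher with OMA-1 and 12.4% with LIN-41. At equal totals OMA-1 exceeded LIN-41 for 4 of the 19, beside 14.78% of all genes. LIN-41 then exceeded OMA-1 for 7, beside 20.54% of all genes. The mRNA of hsf-1 was higher with OMA-1 by 1.62 ± 0.15.

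Of 13 other small heat shock protein genes, 9 were in the table and most were scarce. With OMA-1 3 were lower (median -0.99), where 18.7% of all genes were, and 6 at equal totals, where 52% of all genes were. The highest OMA-1 log2 ratio was 0.01, that of sip-1, a small heat shock protein gene of oocytes and embryos, which turned to -1.33 at equal totals and -1.91 after quantile normalization and was then lower. It had 895 FPKM in the OMA-1 IPs and 1631 FPKM in the LIN-41 IPs, against 890 FPKM in the lysates, in the authors' deposited table. Its LIN-41 log2 ratio of 0.87 was called in the authors' deposited table, but it turned to -0.08 at equal totals and -0.41 after quantile normalization. The OMA-1 minus LIN-41 difference of sip-1 was -0.86 ± 0.13, opposite in sign to that of hsp-16.41. Of the 8 genes tested with LIN-41, 2 were lower, hsp-43 at -1.66 and hsp-25 at -1.18, where 14% of all genes were. At equal totals 5 were lower with LIN-41, where 46.47% of all genes were. After quantile normalization 4 were lower with OMA-1 and 3 with LIN-41, beside 25.04% and 21% of all genes. The lowest with OMA-1 among genes with a mean read count of at least 10 were hsp-17 (-2.55) and hsp-43 (-1.72), and with LIN-41 hsp-12.2 (-1.80, adjusted p of 0.098) and hsp-43. Of genes with that read count, the highest with LIN-41 after sip-1 was hsp-17, at -0.96, which did not pass. With OMA-1 hsp-25 stood at -0.07, not called.

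The ER list, of folding enzymes and stress response genes, held genes on both sides of the lysate level. With OMA-1, 14 of 24 were called higher and 7 lower, where 28.4% and 18.7% of all genes were, with a median of 0.58 that turned to -0.76 at equal totals (7 higher, 13 lower) and -0.53 under quantile normalization (9 and 13). Highest were ero-1, the oxidase gene that drives disulfide formation, at 4.77, and dnj-27, an ER HSP40 gene, at 4.68. The authors' deposited table gave ero-1 964 FPKM in the OMA-1 IPs and 102 FPKM in the LIN-41 IPs, against 35.1 FPKM in the lysates. Lowest were uggt-1, which encodes the glycoprotein folding sensor, at -2.13, and pdi-6, a protein disulfide isomerase gene, at -1.99. With LIN-41, 11 of 24 were called higher and 4 lower, where 27.2% and 14% of all genes were. The median of 0.22 turned to -0.73 at equal totals (5 higher, 15 lower) and -0.27 after quantile normalization (7 and 12). There dnj-27 (2.17) and the disulfide isomerase gene pdi-1 (1.67) were highest, and uggt-1 (-1.01) and T24H7.2 (-0.75) lowest. Between the IPs 12 were higher with OMA-1 and 7 with LIN-41, where 19.6% and 12.4% of all genes were. At equal totals 9 and 8 were, beside 14.78% and 20.54% of all genes. After quantile normalization 8 were higher with each, where OMA-1 exceeded LIN-41 for 15.36% of all genes and LIN-41 exceeded OMA-1 for 15.7%.

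The genes of the ER stress sensors and of the transcription factor XBP-1, named after their values were seen, did not follow one pattern. In the authors' deposited table, xbp-1, the transcription factor gene whose mRNA is spliced by IRE-1, had 541 FPKM in the OMA-1 IPs and 153 FPKM in the LIN-41 IPs, against 85.3 FPKM in the lysates. For the sensor gene ire-1 these levels were 27.7 and 81.5 FPKM, against 42.6 FPKM in the lysates. OMA-1 minus LIN-41 came to 1.82 ± 0.15 for xbp-1 and -1.55 ± 0.17 for ire-1, and both passed. The sensor gene atf-6 was called higher with both proteins (log2 ratios of 2.22 and 1.47 in the authors' deposited table), and these calls held under both other scalings. The sensor gene pek-1 was called with neither (0.14 and 0.26), and at equal totals its OMA-1 value turned to -1.19 and its LIN-41 value to -0.69, both lower. After quantile normalization its OMA-1 value turned to -0.14. The LIN-41 log2 ratio was 0.84 for xbp-1 and 0.93 for ire-1 in the authors' deposited table. It turned to -0.11 at equal totals and to -0.15 after quantile normalization for xbp-1, and to -0.02 at equal totals for ire-1. After quantile normalization the LIN-41 ratio of ire-1 was 0.36 and still called higher.

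In the mitochondrial list, of folding, import and stress response genes, 9 of 18 were called higher with OMA-1 and 1 lower, where 28.4% and 18.7% of all genes were, with a median of 0.54 that turned to -0.80 at equal totals (3 higher, 13 lower) and -0.05 after quantile normalization (3 and 6). The outer membrane import genes tomm-40 (3.50) and tomm-20 (2.34) were highest, lonp-1, a protease gene, was lower at -1.07, and dve-1 at -1.10 did not pass. With LIN-41, 7 were called higher and 3 lower (median -0.12), where 27.2% and 14% of all genes were, and at equal totals 1 and 13 (3 and 9 after quantile normalization). There tomm-40 (1.85) and Y22D7AL.10, the gene of an HSP10 that caps HSP60, (1.30) were highest. The lowest, ubl-5 (-1.07) and tomm-22 (-0.83), did not pass. Between the IPs, 7 were higher with OMA-1 and 1 with LIN-41, where 19.6% and 12.4% of all genes were. At equal totals 3 and 4 were, beside 14.78% and 20.54% of all genes. After quantile normalization the counts were 5 and 2, beside 15.36% and 15.7%. The import gene tomm-20 had 290 FPKM in the OMA-1 IPs and 43.2 FPKM in the LIN-41 IPs, against 56.8 FPKM in the lysates, in the authors' deposited table.

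**Figure D4:**
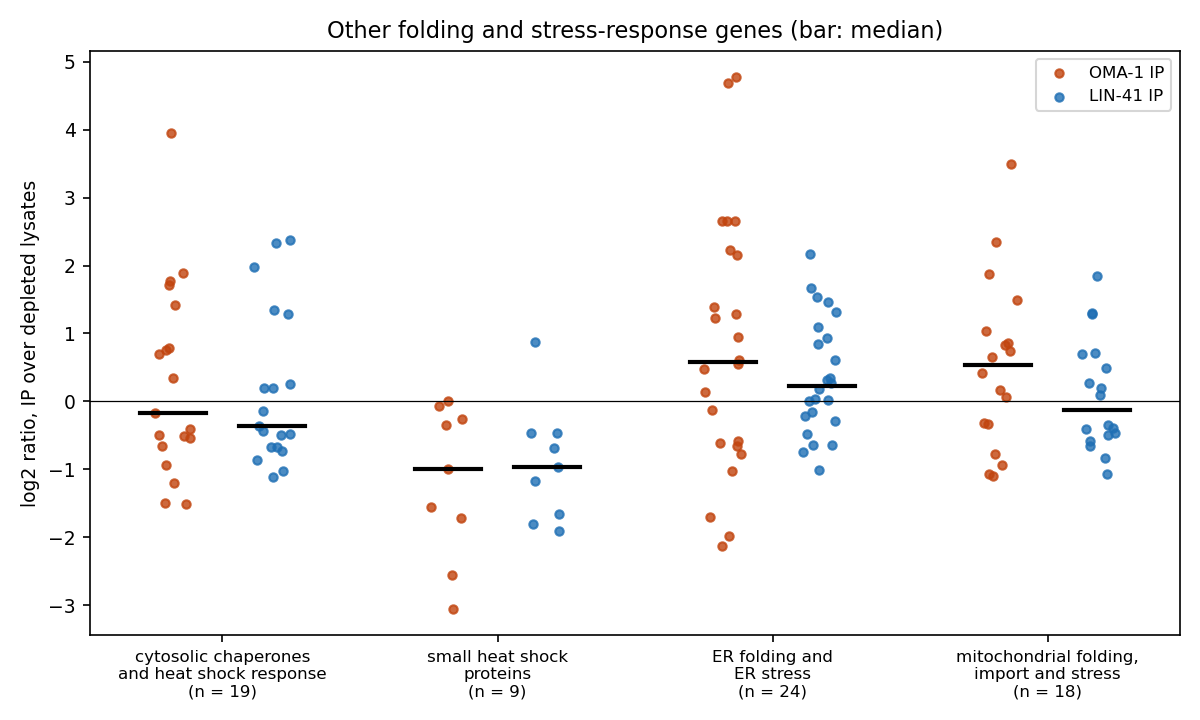
Log2 ratio over the depleted lysates of each gene in 4 lists of related folding and stress response genes, with OMA-1 left of LIN-41 and 1 point per gene. Black bars are medians, 0.58 with OMA-1 and 0.22 with LIN-41 for the ER list.

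The authors' deposited table also holds the log2 ratio of an OMA-1 IP from an earlier study, set against the depleted lysates per the table's heading. For the 6 abundant chaperone genes the earlier and present values differed by 0.44 at most, that of hsp-60: 3.89 for hsp-4, 2.69 for hsp-60, 2.41 for hsp-6, 0.23 for daf-21, -1.0 for hsp-3 and -1.51 for hsp-1. The heat-inducible genes differed more, with -0.16 for hsp-16.2, 1.24 for hsp-16.41 and -1.09 for hsp-70. By that heading both sets of ratios share the lysates, so they are given side by side only.

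A further comparison in the authors' deposited table sets spermatogenic fem-3(q96gf) gonads over oogenic fog-2(q71) gonads of another study. It called hsp-4 (log2 ratio of 1.69, adjusted p of 1.45e-44) and daf-21 (0.25, adjusted p of 0.0442) higher in spermatogenic gonads, where 27.6% of all genes were called. It called hsp-16.41 (-1.68, adjusted p of 0.0353) and hsp-70 (-1.56, adjusted p of 0.0267) higher in oogenic gonads, where 28.2% of all genes were called. The value for hsp-16.2, -1.48, did not pass (adjusted p of 0.0752), and the other 4 lay between -0.03 and 0.08.

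The gene models differ in their 3′ untranslated regions, the part of an mRNA through which both proteins are known to act. In Ensembl's WBcel235 annotation, the build named in the submitters' processing notes, the transcript with the longest coding sequence had 481 bp of 3′ untranslated region for hsp-6, 397 bp for hsp-60 and 363 bp for hsp-3. The others lay between 87 bp (hsp-70) and 148 bp (hsp-4). For hsp-1 the length was 145 bp. Some genes have several annotated transcripts, with 4 for hsp-60 and 3 each for hsp-3 and hsp-4, and only 1 per gene was measured. Whether these lengths bear on the log2 ratios was not tested.

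**Figure D5:**
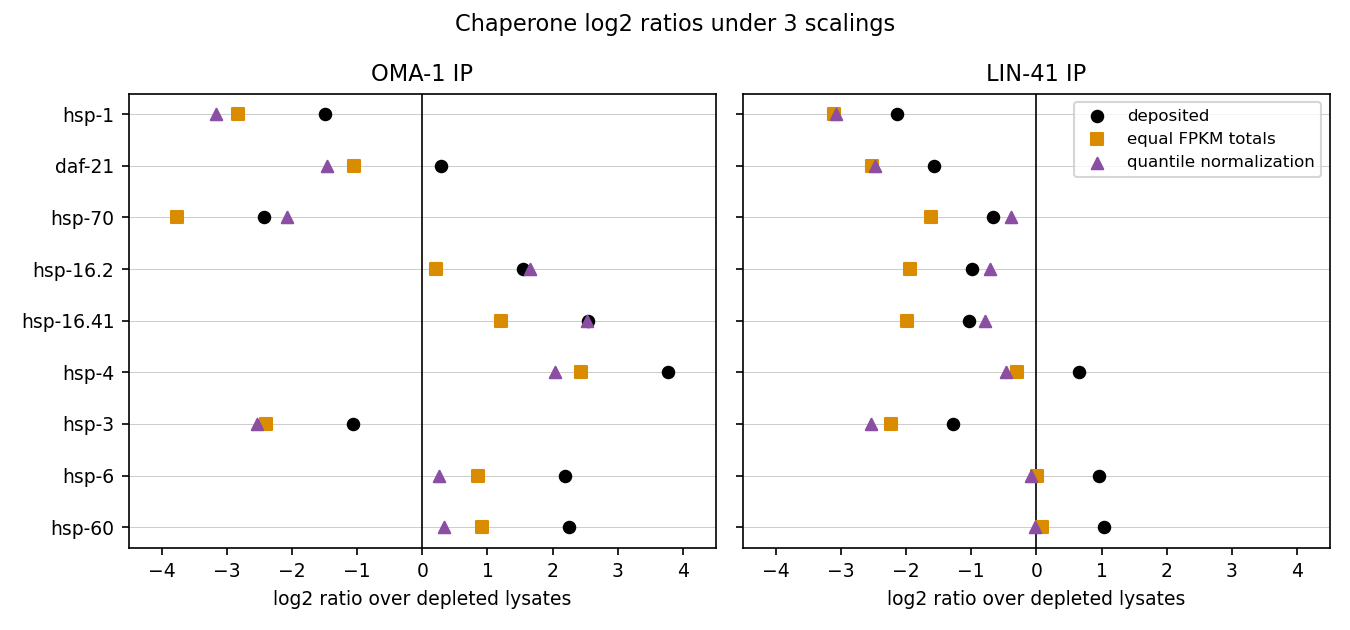
Log2 ratios to the depleted lysates of the 9 chaperone genes under the deposited scaling, equal FPKM totals and quantile normalization. With OMA-1 only daf-21 crosses 0, and with LIN-41 hsp-4 does under both alternatives and hsp-6 and hsp-60 under quantile normalization.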

How the data were processed

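Per the submitters' processing notes, the tools were DESeq2 1.12.3, SAMtools 1.0, STAR 2.4.2a and Trimmomatic 0.32, and the build was WBcel235. How reads were counted is not given in the sources used here. Per the file headers, the authors deposited log2 values for the IPs over depleted lysates, with a Benjamini-Hochberg adjusted p-value. The authors deposited pooled FPKM values and a baseMean signal, the mean read count over libraries. Another 4 columns, from other studies, were not used.

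The deposited adjusted p was turned back into a one-sided p and a Wald z, which gave an implied SE (Python 3.11.15, SciPy 1.17.1). Where the adjusted p was stored as 0, as for the OMA-1 ratios of hsp-4 and hsf-1, the SE was the ratio divided by the largest z of the other genes. A missing SE came from the other comparison, or else was the 95th percentile of the 201 genes closest in baseMean. Lower values were tested one-sided and the OMA-1 minus LIN-41 difference two-sided with a normal approximation, adjusted by Benjamini-Hochberg over all genes tested. The difference's error counts lysate spread that cancels, so it is too wide. The script was tested on simulated data.

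The members and lists were chosen with earlier results of these data known. From each list the text names the 2 highest and 2 lowest ratios per IP at a baseMean of at least 10, and for hsp-4 and hsp-1 the 3 genes nearest in both ratios at a baseMean of at least 100. Of the list genes, 70 were found by symbol or gene ID.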

Additional observations from a re-analysis of the deposited data

Results flagged for a closer look

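The ratio to the lysates differed between OMA-1 and LIN-41 by the approximate test of the difference for 6 of the 9 chaperone genes. All 6 were higher with OMA-1, where 19.6% of all genes were and 12.4% were higher with LIN-41. Among genes with a mean read count of at least 1000, 48.4% were higher with OMA-1. The count was 5 at equal totals and 4 after quantile normalization, beside 14.78% and 15.36% of all genes. In log2 units, OMA-1 exceeded LIN-41 by 3.57 for hsp-16.41 and 3.13 for hsp-4. The excess was 1.85 for daf-21, 1.23 for hsp-6, 1.22 for hsp-60 and 0.65 for hsp-1. The call for hsp-1 was lost at equal totals, and its difference turned to -0.09 after quantile normalization. For daf-21 the log2 ratios had opposite signs under the deposited scaling, 0.28 with OMA-1 and -1.57 with LIN-41.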

How the results depend on the processing

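No paired analysis was possible because the table holds no value for a single library, and leaving out each library in turn was not run for the same reason. With equal FPKM totals, 3 members in place of 5 were higher with OMA-1, 0 in place of 3 were higher with LIN-41 and 6 in place of 3 were lower with LIN-41. Quantile normalization also left 0 higher with LIN-41. Both counts of 0 come from the normal test with implied SEs, which gave 0 at an unadjusted p under 0.05 as well. With SEs implied in both comparisons only, 3 in place of 6 members were higher with OMA-1 than with LIN-41, since fewer genes could be tested; that setting gives no test for lower values. Counts moved by no more than 1.5 times with a baseMean of at least 10, an adjusted p below 0.01, or SEs of nearby genes, an alternative chosen after seeing the data. With equal totals the sign turned for the LIN-41 ratio of hsp-4 (-0.30), the OMA-1 ratio of daf-21 (-1.05) and the difference of hsp-3 (-0.17). With quantile normalization it turned for the LIN-41 ratios of hsp-4 (-0.46), hsp-6 (-0.0897) and hsp-60 (-0.0157), the OMA-1 ratio of daf-21 (-1.46) and the difference of hsp-1 (-0.0904). The cause was not tested. Ratios of FPKM with a pseudocount of 0, 0.1 or 1 kept every member's direction, but hsp-70 no longer passed with OMA-1 at a pseudocount of 1 (-0.78), and hsp-16.2 passed at 0 (1.70). Depth limits hsp-70, hsp-16.2 and hsp-16.41.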
